A study of Acipenser dabryanus with 12 samples.

Results

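The liver genes described here were the assembled genes of Yangtze sturgeon (Acipenser dabryanus) whose abundance in liver was higher with a soybean oil diet than with a fish oil diet. A gene was a member when its mean over the 4 liver libraries was at least 5 and below 1000 TPM (transcript abundance scaled to a library total that is the same for all), and when its value of TPM + 1 was at least 2-fold higher with soybean oil both after and before the meal. TPM divides the reads of a gene by its length before that scaling, so levels of different genes can be set side by side. The rule found 60 genes among the 280408 of the assembly, or 0.581% of the 10320 genes with a liver mean in the stated range, which include the members and serve as the comparison group below. The mirror rule, at least 2-fold lower with soybean oil in both meal states, found 326 genes, or 3.16%. Because the members were selected on their liver values by diet, those values are given as a description, with no test.

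The fish were 6 months old and had eaten a diet with soybean oil or with fish oil for 7 weeks, 40 fish being held in 2 ponds with 1 diet per pond. From each pond 6 fish were caught 1 h after a meal and 6 others 1 h before it. The 12 libraries cover liver, brain and spleen, with 1 library for every tissue, diet and meal state, and whether each comes from 1 fish or a pool is not stated, though the protocols mention 3 samples per diet and time and more libraries than the 12 analysed here. Effects of diet and of pond cannot be told apart, nor can those of the meal and of the hour of sampling, and the protocol text speaks of liver dissection although brain and spleen are labelled too. The labels give no strain or genotype, and no untreated or pre-trial fish were analysed here.

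Soybean oil is rich in linoleic acid, an omega-6 fatty acid of plants, whereas fish oil supplies long-chain omega-3 fatty acids. In vertebrates the liver takes up fatty acids from the diet, desaturates, elongates, burns or stores them, and exports lipid in lipoproteins. Transcript levels of liver genes for these steps are known to respond to the kind of fat eaten. The deposited values carry assembly identifiers only, so no member can be given a name, a role or a sequence here, and the tissue labels could not be checked against marker genes.

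The livers differed in the number of genes detected and in the share of the most abundant genes. Genes of at least 1 TPM numbered 40932 and 29749 in the soybean oil livers after and before the meal, and 46726 and 41124 in the fish oil livers. The 10 highest genes took 21.0% and 22.4% of all TPM in soybean oil livers after and before the meal, against 15.0% and 15.4% in the fish oil livers. The comparison group had a median diet log2 fold of -0.29 in liver on deposited TPM, so most of it lay lower with soybean oil under that scaling. That the members lay higher was set by the rule. After median-of-ratios scaling of the livers the median of the comparison group was 0.078. After quantile normalization, which set all 12 libraries of the 3 tissues to a shared distribution, it was 0.004. Brain and spleen libraries differed too. Before the meal, genes of at least 1 TPM numbered 52435 with soybean oil and 78832 with fish oil in brain, and 48131 and 62193 in spleen. After the meal they numbered 66426 and 66103 in brain, and 60507 and 47226 in spleen. The median diet log2 fold of the comparison group in brain was 0 after the meal and -0.14 before it. TPM keeps no sequencing depth, so no counting error can be attached to any value.

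In liver the members together took a larger share of the transcripts with soybean oil. They summed to 5304 and 5057 TPM in soybean oil livers after and before the meal, and to 1639 and 1756 TPM in fish oil livers. That was 0.530% and 0.506% of all TPM with soybean oil, against 0.164% and 0.176% with fish oil. The 3 most abundant members held 4082 and 3481 TPM of the soybean oil sums after and before the meal, and 1361 and 1305 TPM of the fish oil sums. The other 57 members summed to 1222 and 1576 TPM with soybean oil, and to 278 and 451 TPM with fish oil. The direction of these sums was set by the rule. In bulk tissue, fewer cells of a type and less RNA per cell cannot be told apart.

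The median member stood at 14.6 and 17.0 TPM in soybean oil livers after and before the meal, and at 2.96 and 4.045 TPM in fish oil livers. No member could be listed at 0 in a soybean oil liver, because the rule requires at least 1 TPM there. In the fish oil livers 16 (26.7%) were listed at 0 after the meal and 5 (8.33%) before it. The comparison group had 0.669% and 0.988% at 0 there, and the rule favours low values in those livers. The same 5 were at 0 in both. Most members were of low abundance, as was most of the comparison group. Of the members 29 had a liver mean of 5 to 10 TPM, 16 of 10 to 20 TPM, 10 of 20 to 50 TPM, 2 of 50 to 100 TPM and 3 above 100 TPM. The band of 5 to 10 TPM held 48.3% of the members and 47.7% of the comparison group, and that of 10 to 20 TPM 26.7% and 25.1%. In the comparison group the same bands held 4926, 2586, 1600, 583 and 625 genes, of which the members were 0.589%, 0.619%, 0.625%, 0.343% and 0.480%.

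**Figure D1:**
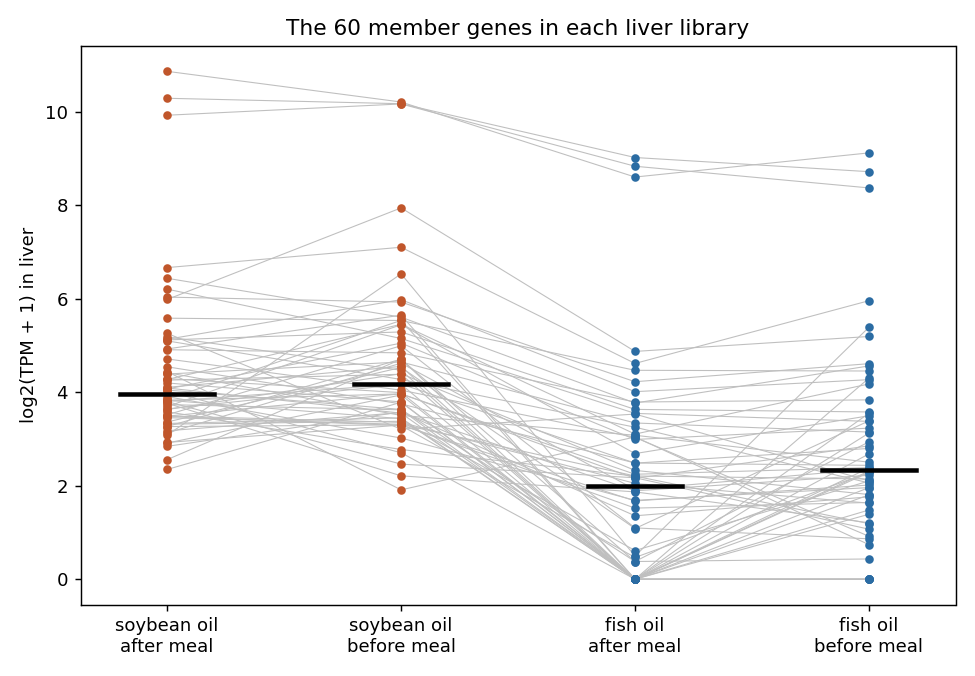
Liver level of each of the 60 members, as log2(TPM + 1), in the soybean oil livers after and before the meal and in the fish oil livers after and before the meal. Points are genes, grey lines join the values of a gene and black bars are medians, which correspond to 14.6, 17.0, 2.96 and 4.045 TPM; the step between diets was set by the rule.

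The size of the liver difference was modest for most members. The smaller of the 2 folds of a member, taken on TPM + 1, had a median of 2.48, and it lay between 2 and 3 in 42 members, between 3 and 4 in 8, between 4 and 8 in 5 and at 8 or above in 5. The median fold was 3.66 after the meal and 2.99 before it. The signed log2 fold was higher after the meal in 38 of 60 members and higher before it in 22. In the comparison group it was so in 6215 and 4105 of 10320 genes. The median log2 fold of that group was -0.19 after the meal and -0.38 before it. A higher signed fold was therefore often a smaller diet difference in that group, while in the members it was always a larger one. In 23 members (38.3%) the folds of the meal states were at least 2-fold apart, against 25.5% of the comparison group. The rule selected the members on these same folds, so the higher share is a description only.

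The members with the largest smaller fold were listed at 0 with fish oil. TRINITY_DN130103_c3_g3 was at 18.6 and 14.9 TPM in soybean oil livers after and before the meal, and was listed at 0 in both fish oil livers and in all brain and spleen libraries. TRINITY_DN137255_c1_g1 was at 11.5 and 17.0 TPM in soybean oil livers and listed at 0 in both fish oil livers. The second of these was not a gene of the liver alone. It stood at 25.2 and 18.3 TPM in soybean oil brains after and before the meal, and at 45.5 and 16.6 TPM in fish oil brains. In spleen it was at 34.6 and 19.0 TPM with soybean oil, and at 45.9 and 53.5 TPM with fish oil.

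The most abundant members carried the largest absolute differences. TRINITY_DN106611_c0_g2 was at 1862 and 1181 TPM in soybean oil livers after and before the meal, and at 388 and 555 TPM in fish oil livers. TRINITY_DN138522_c1_g1 was at 1249 and 1152 TPM in soybean oil livers, and at 518 and 420 TPM in fish oil livers. The means were 1522 ± 482 TPM with soybean oil and 471 ± 118 TPM with fish oil for TRINITY_DN106611_c0_g2, and 1200 ± 68.4 TPM with soybean oil and 469 ± 69.5 TPM with fish oil for TRINITY_DN138522_c1_g1 (SD, n = 2 each, across meal states). In both genes each soybean oil liver lay above each fish oil liver, a separation that the rule partly set.

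At the edge of the rule, TRINITY_DN129622_c1_g1 was at 20.4 and 10.3 TPM in soybean oil livers after and before the meal and at 7.45 and 4.67 TPM in fish oil livers, a smaller fold of 2. TRINITY_DN139779_c0_g3 was at 16.2 and 22.5 TPM with soybean oil and at 0 and 10.7 TPM with fish oil. Just outside, TRINITY_DN109174_c0_g1 was at 128 and 141 TPM with soybean oil and at 55.4 and 70.2 TPM with fish oil, a smaller fold of 1.99. The lowest liver mean of a member was 5.04 TPM, and the nearest gene below the limit had 4.89 TPM. The highest mean of a member was 997 TPM, while 4 genes with liver means of 1328 to 3002 TPM met the fold criterion and were kept out by the upper limit.

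Trinity, the assembler, groups related contigs in components and can divide one locus among several genes of a component, so the component sums were examined. Of the members, 25 were alone in their component and 35 (58.3%) shared it with other genes, against 72.6% of the comparison group. No component held more than 1 member. Among the 35, the summed TPM of the component was also at least 2-fold higher with soybean oil in both meal states in 21, higher but by less than 2-fold in at least 1 state in 12, and lower in at least 1 state in 2. With members alone in their component included, 46 of 60 kept the 2-fold difference.

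Where the member was a small piece of its component, the component showed less of the difference. In 31 of the 35 the member made up at least 50% of the component's liver TPM. Of these component sums 20 were at least 2-fold higher, against 1 of the other 4. That 1 belonged to TRINITY_DN109174_c0_g2, which was 13.8% of its component. A member with most of the TPM of a component also sets most of its sum, so these counts were partly fixed by the rule. TRINITY_DN130103_c3_g3, with the largest smaller fold of all members, was 1.46% of its component, whose sum was 635 and 639 TPM in soybean oil livers after and before the meal and 492 and 529 TPM in fish oil livers. For that gene the listed zeros with fish oil therefore stood beside a component that differed by a log2 fold of 0.37 after the meal and 0.27 before it. How reads were divided among the genes of a component was not tested.

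**Figure D2:**
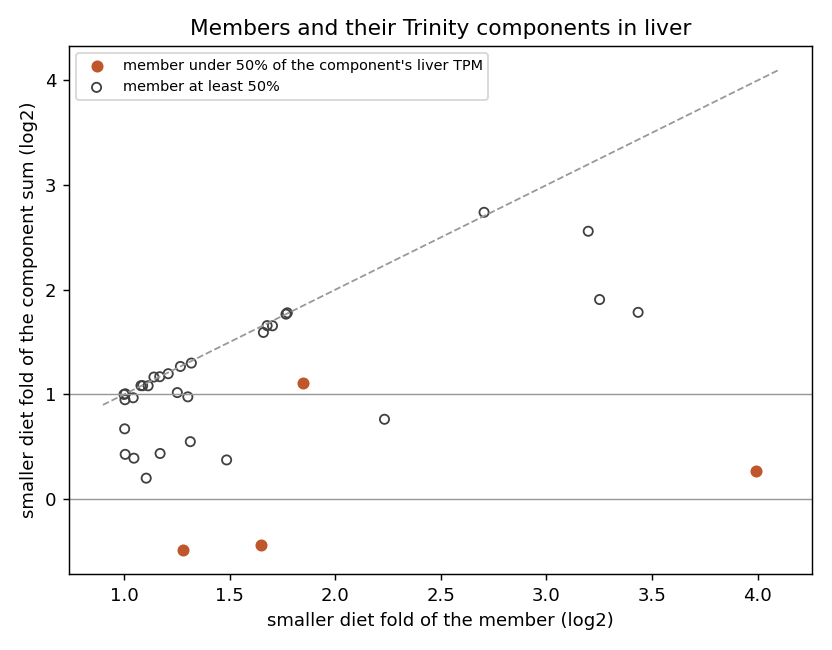
For the 35 members that share a Trinity component, the smaller liver diet fold of the member (horizontal axis, log2 soybean oil over fish oil) against that of the component sum (vertical axis, log2). Filled points are the 4 members under 50% of the component's liver TPM, open points the other 31; the dashed line marks equality, and 21 points lie on or above the horizontal line at 1, the 2-fold limit.

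The members fell into genes of liver alone and genes found in every tissue. With a mean of at least 1 TPM as the limit, 16 members (26.7%) were detected in liver alone, against 11.2% of the comparison group and 16.9% of the 326 liver genes lower with soybean oil. A further 5 were detected in liver and brain, 2 in liver and spleen, and 37 (61.7%) in all 3 tissues. Of the comparison group 80.9% were detected in all 3 tissues, and of the genes lower with soybean oil 59.2%. A higher mean in brain or spleen than in liver was seen for 26 members (43.3%). That share was 58.6% in the comparison group and 38.0% in the genes lower with soybean oil. In all 8 brain and spleen libraries, 7 members (11.7%) were listed at 0, against 2.53% and 7.06% of those sets. In each of these shares the genes lower with soybean oil lay on the same side of the comparison group as the members.

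Tissues were compared with limma on log2(TPM + 1), with Benjamini-Hochberg adjustment over 89972 genes (those reaching 1 TPM in 2 or more libraries) and a threshold of 0.05. All 60 members were among the genes tested, which the rule itself ensured. Between liver and brain 30 members were called, 20 of them higher in liver and 10 lower. Over 18 alternative settings the lower calls ran from 4 to 12. They were 4 after quantile normalization, 5 with no filter on low values, 5 without the fish oil liver after the meal and 6 without the one before it. Without the soybean oil liver after the meal they were 11, and without the one before it 12. Of all genes tested 6.44% were called higher and 37.3% lower, and of the comparison group 29.3% higher and 31.9% lower. Between liver and spleen 30 members were called, 23 higher in liver and 7 lower, where all genes tested gave 7.88% higher and 25.3% lower and the comparison group gave 34.5% higher and 26.7% lower. The median log2 fold of the members was 1.00 for liver over brain and 1.51 for liver over spleen, against -0.11 and 0.17 in the comparison group. A liver level and a liver diet difference were both asked for by the rule, and diet counts as spread in this model, and the members' median SE was 0.616, against 0.298 in the comparison group.

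On the log2(TPM + 1) scale, which gives abundant genes the larger differences, the members that stood furthest above the other tissues were abundant ones. TRINITY_DN106611_c0_g2, at 388 to 1862 TPM in liver, was at 0.19 to 0.96 TPM in brain and 0.19 to 2.05 TPM in spleen. Its log2 fold was 9.10 ± 0.46 for liver over brain (SE, limma adjusted p = 1.12e-08) and 9.06 ± 0.46 for liver over spleen (SE, limma adjusted p = 2.03e-08). TRINITY_DN115174_c0_g1 was at 971 and 1148 TPM in soybean oil livers after and before the meal and at 455 and 330 TPM in fish oil livers. It was at 0.27 to 1.08 TPM in brain and 0.44 to 5.66 TPM in spleen, with log2 folds of 8.48 ± 0.50 for liver over brain (SE, limma adjusted p = 4.67e-08) and 8.12 ± 0.50 for liver over spleen (SE, limma adjusted p = 1.18e-07). For both genes every liver library lay far above every brain and spleen library. Both were named for this tissue difference in the same libraries, so their p-values are a description.

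Other members had their lowest level in liver. Those described here were named for that difference, so their p-values are a description too. TRINITY_DN103151_c0_g1 was at 15.2 and 5.52 TPM in soybean oil livers after and before the meal and listed at 0 in both fish oil livers. It was at 42.7 and 38.6 TPM in soybean oil brains and at 15.2 and 71.5 TPM in fish oil brains, and at 61.5 and 48.1 TPM in soybean oil spleens and 26.2 and 97.8 TPM in fish oil spleens. It was lower in liver than in brain by -3.56 ± 0.83 on the log2 scale (SE, limma adjusted p = 0.00348) and lower than in spleen by -4.06 ± 0.83 (SE, limma adjusted p = 0.00193). TRINITY_DN116451_c2_g2 had a liver over brain log2 fold of -3.12 ± 2.07 (SE, limma adjusted p = 0.25) and a liver over spleen log2 fold of -3.25 ± 2.07 (SE, limma adjusted p = 0.269), neither past the threshold.

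**Figure D3:**
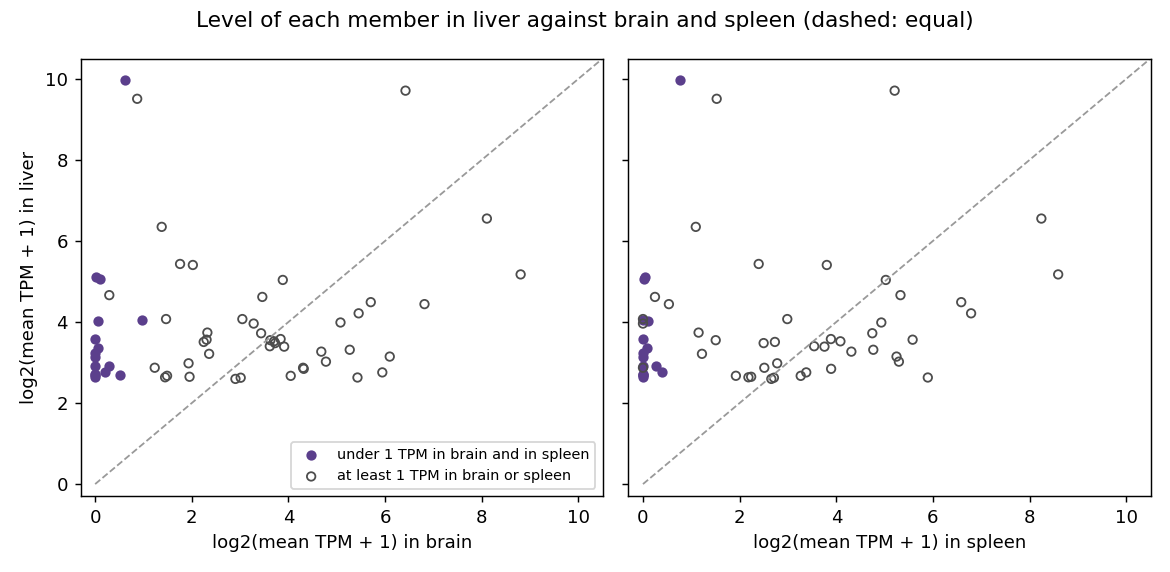
Mean level of each member in liver (vertical axis) against brain (left) and spleen (right), as log2(mean TPM + 1) over 4 libraries. Filled points are the 16 members under 1 TPM in both other tissues, open points the other 44, and the dashed line marks equal levels; the members spread from far above the line to well below it.

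The 16 members of liver alone summed to 2108 and 1487 TPM in soybean oil livers after and before the meal and to 447 and 638 TPM in fish oil livers. In spleen, where each was below the limit by definition, the sums were 0.96 and 1.11 TPM with soybean oil and 0.57 and 2.94 TPM with fish oil, and in brain 3.10 and 0.88 TPM with soybean oil and 0.62 and 5.23 TPM with fish oil. Both tissues had their highest sum in the fish oil library before the meal. A different gene held most of it in each tissue. In that brain library TRINITY_DN116593_c3_g3 was at 3.79 TPM, and in that spleen library TRINITY_DN106611_c0_g2 was at 2.05 TPM. The part of such low values in the diet folds of brain and spleen was not tested.

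The diet difference that defined the members in liver was not shared by most of them in brain. Soybean oil over fish oil was higher in both meal states for 10 members (16.7%, against 12.4% of the comparison group) and lower in both for 9 (15%, against 24.5%). Opposite signs were seen in 23 of 60 members, against 5788 of 10320 genes in the comparison group. A pair with no difference was found in 18 of 60 members, against 725 of 10320 genes. A gene with such a pair counts on neither side, which lowers both of the members' shares. After quantile normalization the shares were 21.7% higher and 11.7% lower, against 24.5% and 14.4% of the comparison group. The members' share on the higher side thus went from above that group to below it with scaling. Their share on the lower side lay below that group under both scalings. The median log2 fold was 0, against -0.08 in the comparison group. Among the 42 members with a brain mean of at least 1 TPM it was 0.109, against -0.099 in the comparison group under that limit. In limma, diet called 0 members in brain, where all genes tested gave 0%, and 3 members had an unadjusted p under 0.05, all higher with soybean oil. That was 5% of the members, against 4.93% of all genes tested and 1.98% of the comparison group in either direction, and 1.14% and 0.613% in the higher direction. The lowest adjusted p of a member was 0.457. It belonged to TRINITY_DN113588_c2_g1, singled out after its values were seen, at 24.9 and 27.6 TPM in soybean oil brains after and before the meal and at 12.9 and 10.2 TPM in fish oil brains. Its log2 fold was 1.13 ± 0.24 (SE, limma adjusted p = 0.457).

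Only 2 members were at least 2-fold higher with soybean oil in both brain pairs (3.33%, against 0.32% of the comparison group), and 2 at least 2-fold lower (3.33%, against 0.95%). The higher ones were abundant in brain. TRINITY_DN116451_c2_g2 was at 928 and 725 TPM in soybean oil brains after and before the meal, and at 128 and 2.04 TPM in fish oil brains. TRINITY_DN122944_c0_g1 was at 503 and 397 TPM in soybean oil brains, and at 36.1 and 161 TPM in fish oil brains. In both genes each soybean oil brain lay above each fish oil brain. The log2 fold was 5.37 ± 1.99 for TRINITY_DN116451_c2_g2 (SE, limma adjusted p = 0.981) and 2.53 ± 0.70 for TRINITY_DN122944_c0_g1 (SE, limma adjusted p = 0.680).

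The lower ones were less abundant there. TRINITY_DN103281_c0_g1 was listed at 0 in both soybean oil brains, and stood at 3.99 and 2.92 TPM in fish oil brains after and before the meal. TRINITY_DN138491_c1_g1 was at 1.99 and 7.20 TPM in soybean oil brains, and at 7.34 and 31.5 TPM in fish oil brains. In both genes each soybean oil brain lay below each fish oil brain, by a small margin in the second, and the log2 fold of TRINITY_DN103281_c0_g1 was -2.14 ± 1.38 (SE, limma adjusted p = 0.986). The log2 fold of TRINITY_DN138491_c1_g1 was -1.73 ± 0.94 (SE, limma adjusted p = 0.986).

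In spleen somewhat more members leaned to the soybean oil side. Both pairs were higher in 17 members (28.3%, against 16.0% of the comparison group) and lower in 9 (15%, against 14.9%). Opposite signs were seen in 15 of 60 members, against 6211 of 10320 genes in the comparison group. A pair with no difference was found in 19 of 60 members, against 912 of 10320 genes. The comparison group itself had a median diet log2 fold in spleen of 0.24 after the meal and -0.18 before it. The part of that shift in the members' signs was not tested. After quantile normalization the shares were 25% higher and 15% lower, against 20.8% and 14.1% of the comparison group. The excess on the soybean oil side was thus smaller under that scaling. The median log2 fold was 0, against 0.03 in the comparison group. Among the 39 members with a spleen mean of at least 1 TPM it was 0.26, against 0.064 in the comparison group under that limit. In limma, diet called 0 members in spleen, where all genes tested gave 0%, and 4 members had an unadjusted p under 0.05, 2 in each direction, or 6.67% against 3.66% of all genes tested and 2.62% of the comparison group. The lowest adjusted p of a member was 0.994.

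At least 2-fold higher in both spleen pairs were 4 members (6.67%, against 0.833% of the comparison group), and 2 were at least 2-fold lower (3.33%, against 0.707%). TRINITY_DN110113_c0_g1 was at 70.0 and 78.6 TPM in soybean oil spleens after and before the meal, and at 14.7 and 23.9 TPM in fish oil spleens. TRINITY_DN117214_c2_g2 was at 18.9 and 13.3 TPM in soybean oil spleens, and at 7.10 and 3.26 TPM in fish oil spleens. The diets did not overlap in either gene. Their log2 folds were 1.93 ± 0.67 and 1.52 ± 0.78 (SE, limma adjusted p = 1 for each).

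In the other direction, TRINITY_DN114968_c4_g1 was listed at 0 in both soybean oil spleens and stood at 7.06 and 4.1 TPM in fish oil spleens after and before the meal. TRINITY_DN143227_c15_g1 was at 0.14 and 0.28 TPM in soybean oil spleens, and at 2.53 and 2.37 TPM in fish oil spleens. Both were thus higher with soybean oil in liver and lower with it in spleen, as listed. In liver TRINITY_DN114968_c4_g1 was 18.5% of its component, which did not keep the direction after the meal. The component sum was then 24.4 TPM with soybean oil and 33.5 TPM with fish oil. Before the meal it was 31.3 TPM with soybean oil and 26.8 TPM with fish oil. The log2 fold of TRINITY_DN143227_c15_g1 in spleen was -1.51 ± 0.64 (SE, limma adjusted p = 1).

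**Figure D4:**
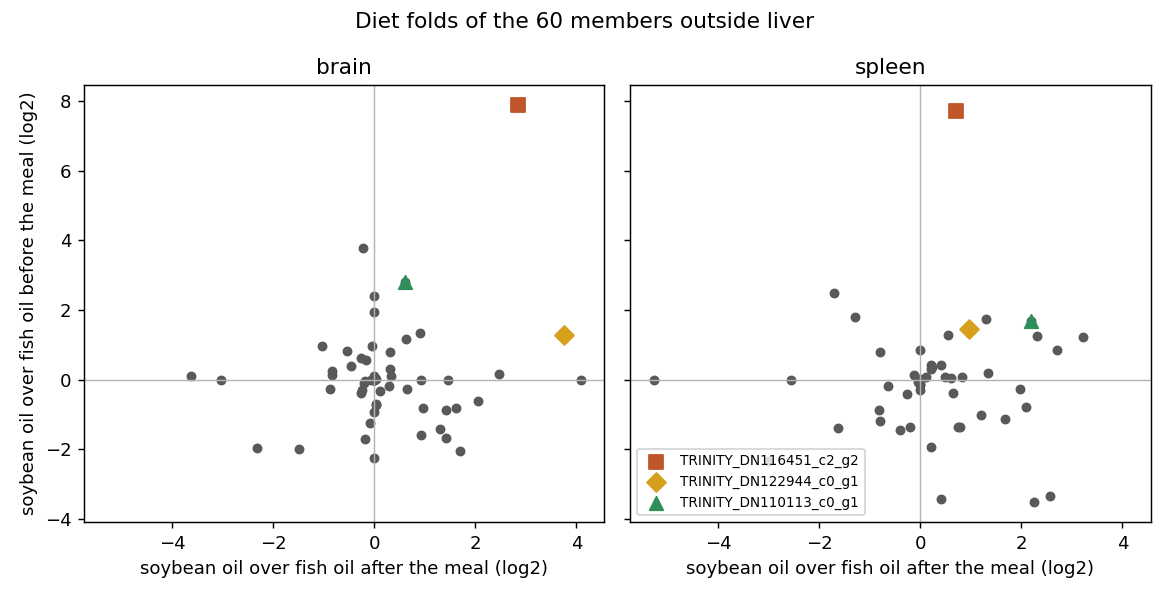
Diet folds (log2 of TPM + 1, soybean oil over fish oil) of the 60 members in brain (left) and spleen (right), after the meal on the horizontal axis and before it on the vertical axis. Coloured symbols mark TRINITY_DN116451_c2_g2, TRINITY_DN122944_c0_g1 and TRINITY_DN110113_c0_g1; most other members lie near 0 or have opposite signs in the meal states.

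A single diet term for brain and spleen together called 0 members, where all genes tested gave 0%. An unadjusted p under 0.05 was found for 10 members, 6 higher and 4 lower with soybean oil, or 16.7% against 2.53% of all genes tested and 2.61% of the comparison group, and every adjusted p was 1. All 4 pairs outside liver were higher with soybean oil in 6 members (10%, against 3.37% of the comparison group), which were thus higher in all 6 pairs of the 3 tissues. All 4 pairs were lower in 3 members (5%, against 4.08%). Whether the 3 tissues of a diet and meal state came from the same fish is not stated. Brain and spleen pairs may therefore not be independent of one another, nor of the livers that the rule used. The joint fit counts both tissues as separate evidence, so these shares and p-values are a description.

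Among the 6, TRINITY_DN116451_c2_g2 and TRINITY_DN122944_c0_g1 took most of the difference in summed level. In spleen TRINITY_DN116451_c2_g2 was at 536 and 669 TPM with soybean oil after and before the meal, and at 329 and 2.20 TPM with fish oil. Its value near 2 TPM in fish oil libraries before the meal was therefore seen in both brain and spleen, while the fish oil liver at that time held 40.9 TPM. TRINITY_DN122944_c0_g1 was at 244 and 615 TPM in soybean oil spleens, and at 124 and 224 TPM in fish oil spleens, with no overlap between diets. The log2 fold over both tissues was 4.79 ± 1.41 for the gene TRINITY_DN116451_c2_g2 and 1.87 ± 0.51 for TRINITY_DN122944_c0_g1 (SE, limma adjusted p = 1 for each).

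The members' summed level in brain was 2217 and 1918 TPM with soybean oil after and before the meal, and 965 and 1020 TPM with fish oil. Without these 2 genes it was 786 and 797 TPM with soybean oil and 801 and 857 TPM with fish oil. In spleen the sums were 1530 and 1978 TPM with soybean oil and 990 and 1254 TPM with fish oil, and without these 2 genes 750 and 693 TPM with soybean oil and 537 and 1027 TPM with fish oil. Without them both soybean oil brains lay below both fish oil brains, and the spleen sums overlapped between diets.

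The 3 members lower with soybean oil in all pairs outside liver were TRINITY_DN106611_c0_g2, TRINITY_DN137821_c2_g2 and TRINITY_DN143227_c15_g1. TRINITY_DN137821_c2_g2 was at 59.3 and 45.5 TPM in soybean oil brains after and before the meal and at 110 and 55.03 TPM in fish oil brains. In spleen it was at 30.1 and 22.3 TPM with soybean oil and at 53.4 and 42.0 TPM with fish oil. The diets overlapped in brain and not in spleen, and the log2 fold over both was -0.71 ± 0.17 (SE, limma adjusted p = 1). TRINITY_DN106611_c0_g2, near 0 outside liver, had -0.52 ± 0.30 (SE, limma adjusted p = 1).

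The meal contrast in liver crosses the diet contrast that the rule used, but it is read from the same 4 libraries, so its values and p are a description and support nothing about the members. After the meal 25 members were lower in both diets (41.7%, against 21.4% of the comparison group) and 14 higher in both (23.3%, against 31.6%). Opposite signs were seen in 16 of 60 members, against 4769 of 10320 genes in the comparison group. A pair with no difference was found in 5 of 60 members, against 90 of 10320 genes. The median log2 fold, after over before, was -0.30, against 0.08 in the comparison group. Within the soybean oil livers the median was -0.09 and within the fish oil livers -0.26. The side of the comparison group depended on scaling. After quantile normalization its median was -0.05 and that of the members -0.38, and after median-of-ratios scaling they were -0.19 and -0.53, so the members' median lay on the lower side under each scaling.

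In limma, meal state called 0 members in liver, where all genes tested gave 0%. An unadjusted p under 0.05 was found for 9 members, 4 higher and 5 lower after the meal. That was 15% of the members, against 3.25% of all genes tested and 6.26% of the comparison group. The lowest adjusted p of a member was 0.501. At least 2-fold higher after the meal in both diets were 3 members (5%, against 3.29% of the comparison group), and 7 were at least 2-fold lower (11.7%, against 0.736%).

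TRINITY_DN137821_c2_g2 was at 20.7 TPM after the meal and 2.76 TPM before it in the soybean oil livers, and at 7.24 TPM after and 0.67 TPM before in the fish oil livers. Its log2 fold was 2.42 ± 0.25 (SE, limma adjusted p = 0.501). TRINITY_DN135822_c2_g2 was at 37.3 TPM after and 8.25 TPM before with soybean oil, and at 10.6 TPM after and 3.30 TPM before with fish oil. Both livers sampled after the meal lay above both sampled before it in each gene. The log2 fold of TRINITY_DN135822_c2_g2 was 1.74 ± 0.71 (SE, limma adjusted p = 1).

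On the other side, TRINITY_DN93615_c0_g1 was with soybean oil at 4.89 TPM after the meal and 25.1 TPM before it, and at 0.30 TPM after and 6.66 TPM before with fish oil. TRINITY_DN116451_c2_g2 was at 7.46 TPM after and 91.5 TPM before with soybean oil, and at 0.41 TPM after and 40.9 TPM before with fish oil. Each lay lower after the meal in both diets. The log2 fold was -2.35 ± 0.26 for TRINITY_DN93615_c0_g1 (SE, limma adjusted p = 0.501) and -4.17 ± 1.99 for the gene TRINITY_DN116451_c2_g2 (SE, limma adjusted p = 1).

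**Figure D5:**
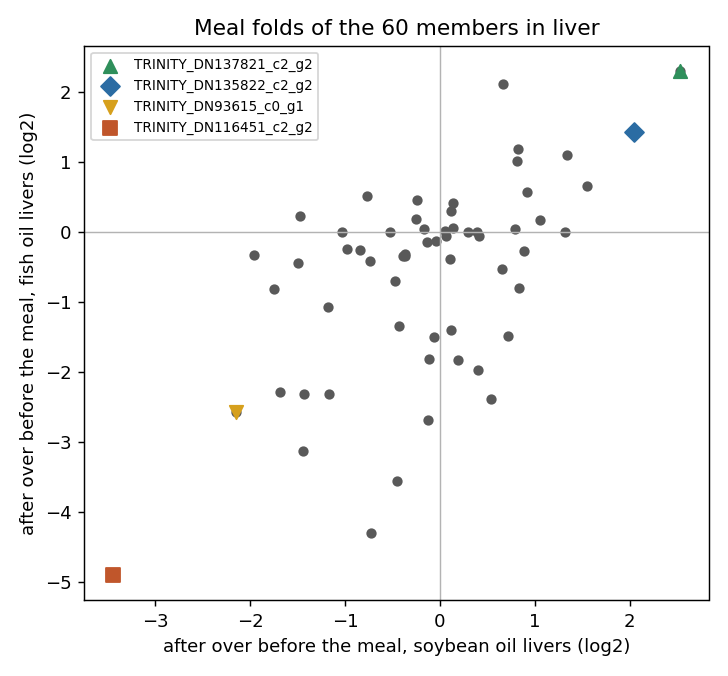
Meal folds (log2 of TPM + 1, after over before the meal) of the 60 members in the soybean oil livers (horizontal axis) and the fish oil livers (vertical axis). Coloured symbols mark the 4 genes described in the text, 2 at the upper right and 2 at the lower left; 25 members lie below 0 and 14 above 0 in both diets.

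The tests of diet and meal state within tissues had 3 residual degrees of freedom. Their error was the difference between diet folds of the meal states, since no combination had a second library. It was pooled over the 3 tissues, so liver values that the rule used entered the error of the brain and spleen tests. TRINITY_DN119033_c0_g1, listed at 0 in all brain and spleen libraries, had an SE of 0.70 for diet in brain. The fit of brain and spleen together used no liver library and also counted differences between the diet folds of those tissues as error. The median SE of a member on the log2 scale was 0.578 within tissues and 0.325 in that fit, against 0.383 and 0.258 in the comparison group, and 0 calls do not show that the diets or meal states were alike. For a single gene with 2 libraries on each side, the smallest p that exact permutation of the libraries allows is 0.333 (two-sided).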

How the data were processed

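RNA sequencing of liver, brain and spleen gave 12 libraries, and Trinity served as assembler, per the labels' protocols. The authors deposited TPM per Trinity gene, 1 column per library; which tool quantified them is not given in the sources used here. As TPM scales each library to 1000000, the depth is unknown, and a few very abundant genes lower the rest. No identifier is paired with a name and no annotation was used.

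Groups came from the labels. The members and all lists were chosen with earlier results of these data known. Folds used a pseudocount of 1, which understates the change of low genes. In R 4.3.3, limma 3.58.1 with a mean-variance trend and robust empirical Bayes moderation was fitted on log2(TPM + 1) of 89972 genes, those reaching 1 TPM in 2 or more of the 12 libraries, with Benjamini-Hochberg adjustment at 0.05, and was tested on simulated data. The models were diet and meal state within tissue (9 coefficients, 3 residual degrees of freedom), brain and spleen together (5 coefficients, 3) and tissue (3 coefficients, 9). P-values measure only the spread between these libraries. Summaries used Python 3.11.15 with pandas 2.3.3 and numpy 2.4.6, and plots matplotlib 3.10.9.

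At most 2 identifiers in each direction were named per comparison. For liver diet these were the members with the largest smaller fold, the highest mean and the smallest smaller fold. For the other contrasts they were members of 1 sign in every pair, ranked by the pair fold nearest 0, and for tissue those with the largest difference between liver and the higher of the other tissues in each direction. Alternatives covered scaling, pseudocount, fold and level limits, filters, the variance model, libraries left out, a tissue's libraries alone and the other factor as spread. Quantile normalization was done over all 12 libraries of the 3 tissues together, and median-of-ratios scaling over the livers only. Quantile folds with the level from deposited TPM, and TPM summed over components, were chosen after seeing the data.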

Additional observations from a re-analysis of the deposited data

Results flagged for a closer look

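For the 19 members named by the rule, and for the summed TPM of all members and of those of liver alone, the 4 brain and the 4 spleen libraries were examined. Of 40 such groups of 4 whose values were not all equal, 8 had a library far from the other 3. The limit used gives about 1 in 20 by chance for normally distributed values that were not selected. These genes were named from the same libraries, and a group with a lone value above 0 passes by construction. The 8 can therefore not be set against that rate. TRINITY_DN106611_c0_g2 was at 2.05 TPM in the fish oil spleen before the meal, against 0.19 to 0.37 TPM in the other spleens. TRINITY_DN115174_c0_g1 was at 5.66 TPM in the same library, against 0.44 to 0.74 TPM, and at 0.27 TPM in the soybean oil brain before the meal, against 0.96 to 1.08 TPM. The lowest liver value was 388 TPM for TRINITY_DN106611_c0_g2 and 329.81 TPM for TRINITY_DN115174_c0_g1, and of the 7 members of liver alone that were above 0 in a spleen, 4 were highest in that spleen library. In brain, TRINITY_DN110113_c0_g1 was at 11.6 TPM in the soybean oil library before the meal, against 0.82 to 2.21 TPM in the others. TRINITY_DN143227_c15_g1 was at 8.29 TPM in the fish oil brain before the meal, against 2.54 to 2.93 TPM. TRINITY_DN114968_c4_g1 was at 7.22 TPM in the fish oil brain after the meal and at 0 in the other brains. TRINITY_DN139779_c0_g3 was at 16 TPM in the soybean oil brain after the meal and at 4.88 TPM in the fish oil spleen after the meal, and at 0 in the other libraries of those tissues.

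Some named members were lower with soybean oil in both pairs of another tissue although the rule made them higher in liver, and the difference between tissues was not tested. In brain the mean log2 fold was -2.14 for TRINITY_DN103281_c0_g1, -1.73 for TRINITY_DN138491_c1_g1, -0.66 for TRINITY_DN143227_c15_g1, -0.57 for TRINITY_DN137821_c2_g2 and -0.27 for TRINITY_DN106611_c0_g2. In spleen it was -2.68 for TRINITY_DN114968_c4_g1, -1.51 for TRINITY_DN143227_c15_g1, -0.92 for TRINITY_DN137255_c1_g1 and -0.85 for TRINITY_DN137821_c2_g2. It was also below 0 in spleen for TRINITY_DN106611_c0_g2 at -0.78, for TRINITY_DN129622_c1_g1 at -0.35 and for TRINITY_DN93615_c0_g1 at -0.055.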

How the results depend on the processing

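The number of genes found by the rule depended on the pairs used, on scaling and on the limits. It was 60 as described, 175 after quantile normalization and 137 after median-of-ratios scaling, with 59 of the 60 members found under each, while genes lower with soybean oil numbered 326 on deposited TPM, 231 after quantile normalization and 151 after median-of-ratios scaling. With the folds after quantile normalization but the level from deposited TPM it was 81, against 144 lower. It was 26 with a pseudocount of 5 and 66 with 0.1, 136 at a fold of 1.5 and 18 at a fold of 3, 31 from a liver mean of 10 TPM, 437 with no lower limit, and 64 with no upper limit. The pair before the meal alone gave 285 genes and the pair after it alone 467. Summing TPM over components gave 54 components, 45 of them holding a member.

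Diet in brain and in spleen and meal state in liver called 0 members under each of 19 settings, with lowest adjusted p of a member in limma of 0.0513, 0.377 and 0.207, and diet in brain and spleen together under each of 14, with 0.75. Over all genes tested, diet in brain called 3.50% to 4.63% when a brain library was left out, where brain adds no residual degree of freedom, and at most 0.437% under its other settings. Diet in spleen called at most 0.208% of all genes and meal state in liver at most 0.116%. Calls between liver and brain numbered 23 to 32, and between liver and spleen 24 to 35, over 18 settings each, the lowest numbers coming from a mean of at least 5 TPM over the 12 libraries, which tested 44 members. The share of all genes called ran from 13.8% to 74.3% for liver and brain and from 9.17% to 68.9% for liver and spleen. With diet and meal state as a block of 4 levels, which pairs the tissues, 32 and 35 members were called. With no limit on the level in brain or spleen, the members' median diet log2 fold in brain was 0.085 after quantile normalization and 0 otherwise. That in spleen was 0 throughout. Leaving out a liver library also removed its pair, so the median meal log2 fold in liver was then that of the other diet. It was -0.2647 without a soybean oil liver and -0.0903 without a fish oil liver.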

Other observations

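The meal contrast outside liver was not part of the comparisons above. In brain, 12 members (20%) were higher after the meal in both diets and 15 (25%) lower, against 23.8% and 26.7% of the comparison group. In spleen, 6 members (10%) were higher after the meal in both diets and 17 (28.3%) lower, against 7.97% and 24.9% of the comparison group. These shares are given as values, with no test.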
